A study of Mus musculus with 8 samples.

Results

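Vesicles that leave the endoplasmic reticulum (ER) are caught at the Golgi by tethers and are then fused with it by SNARE proteins. The 36 genes described here encode that machinery. They are 10 golgins, Golgi stacking factors and the tether p115, the 8 subunits of the conserved oligomeric Golgi (COG) complex, 8 subunits of the TRAPP complexes, and 10 genes for ER-Golgi SNAREs and their partner Scfd1. They were taken as a list of gene symbols that sets no threshold on a measured value, though the list was drawn up with earlier results of these data known, and each was found once among the 48526 genes of the count table.

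Golgins are long coiled-coil proteins, held to the Golgi at one end, that reach into the cytoplasm to capture passing vesicles. The COG complex tethers vesicles that recycle within the Golgi, and TRAPP complexes activate the Rab GTPases that call tethers to a membrane. A SNARE on the vesicle then pairs with SNAREs on the target membrane to drive fusion, and a protein of the Sec1/Munc18 family such as Scfd1 assists that pairing. Melanotropes, the endocrine cells of the pituitary intermediate lobe, send large amounts of pro-opiomelanocortin through this route.

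RNA sequencing was performed on pituitary neuro-intermediate lobes of C57B6 mice, with 5 lobes pooled per library and 2 libraries in each of 4 groups. WT lobes carried no transgene. The groups labelled POMC_ACreb3l2 and POMC_AXBP1 carried a transgene for a dominant-negative form of the transcription factor Creb3l2 or XBP1, in which an acidic stretch replaces the DNA-binding region, and the double group (ACreb3l2_AXBP1) carried both. A rat POMC promoter drives each transgene, and the study cites earlier work for the specificity of that promoter to melanotropes. Which cells of the lobe expressed a transgene was not measured in these libraries. The study describes each transgene from 1 of 2 lines. Its methods give 3-month-old males for pools of lobes, and no agent was given to any group. The comparisons ask which part of the tether and SNARE machinery depends on either factor, alone or with the other blocked.

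The libraries held between 28256086 and 37988912 counts. The labels name melanotropes as the cell type although whole lobes were taken: Pomc made up 6.91% to 14.6% of the counts in a library, and no listed marker of pituicytes, endothelium, macrophages, fibroblasts, anterior lobe or blood was at 0 in every library. The summed level of 8 melanotrope markers was 117229 to 173123 CPM (counts scaled to library size) in WT and 116961 to 129506 in ACreb3l2. It was 107714 to 125513 in AXBP1 and 70054 to 95809 in ACreb3l2_AXBP1. Pomc is among the 8 and made up most of each sum. In ACreb3l2_AXBP1 against WT, 2 of the 8 were called lower, where 6.99% of all genes tested were. In the same comparison with WT, 1 of 8 pituicyte markers was called higher, and of the other 5 lists none had a call. The part of these shifts in the results below was not tested. In such bulk samples, fewer cells of a type and less RNA per cell cannot be told apart. The counts of the targeted genes did not check the labels: Creb3l2 had normalized counts of 28195 and 28682 for WT and of 26775 and 27212 in the libraries labelled ACreb3l2, and Xbp1 had 11877 and 13436 for WT and 12448 and 13849.9 in those labelled AXBP1. Creb3l2 itself had 18837 and 22833 in AXBP1, and 21205 and 14044 in ACreb3l2_AXBP1, where it was called lower than in WT (log2 change -0.69, adjusted p = 0.0428). Xbp1 had 9155 and 9205 in ACreb3l2, below both WT libraries (log2 change -0.46). In ACreb3l2_AXBP1 it had 17639 and 12854.5 (log2 change 0.27 against WT), and it was called in neither group. Group names are used below as the labels give them.

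Creb3l2 and XBP1 belong to families of basic leucine zipper factors that bind elements built on the core ACGTG, so the starts of the genes were searched for it. RefSeq promoter windows (GRCm38.p6, 250 bases before to 50 after an annotated transcript start) were given for 29 of the 36 genes. For 30 of the 34 windows of these genes, the end of the window lay within the first 400 bases of a GENCODE transcript of the same gene. The stretches that follow are from genes that were lower in ACreb3l2_AXBP1 than in WT and hold the core in either direction. Those with the lowest p in that comparison are shown. Golga1, Gorasp1, Uso1 and Bnip1 also qualify but are left out. Of the genes shown, 3 carry the same longer element just after the start. Capitals mark any searched string that lies whole in the stretch, on either strand. The strings were the core ACGTG, then the longer element TGACGTG, the element GACGTGG and the element ACGTGGC, and lastly the part CCACG of the ER stress element:
Golga3, chr5:110176873-110176902, plus strand: ccccttgcacaGCCACGTCctaccggagcc
Stx5a, chr19:8741424-8741453, plus strand: gcgcagcaGCCACGTCAccgagttaggagt
Scfd1, chr12:51377533-51377562, plus strand: cgggaggtaggGCCACGTCAtcttcgggct
Gosr2, chr11:103697682-103697711, minus strand: tggggttgtgaggACGTGttccgaggaagc
Golga5, chr12:102468884-102469003, plus strand: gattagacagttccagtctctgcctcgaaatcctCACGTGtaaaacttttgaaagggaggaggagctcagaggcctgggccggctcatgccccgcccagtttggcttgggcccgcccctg

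Golga3, Stx5a and Scfd1 all hold GACGTGGC, read on the opposite strand, between 1 and 50 bases after the start. Stx5a holds a further copy on the gene's own strand, at bases 41 to 48, outside the stretch shown. This string joins a pair of the 7-base elements and was singled out after the matches had been seen. It occurred in 0.764% of all 32851 windows, in 1.4% of the 11169 tested genes with a window, in 6.38% of the 847 that were called lower in ACreb3l2_AXBP1 than in WT, and in 5 of the 29 genes described here, of which Uso1 and Cog3 are the other two. The genes shown next were called lower and lack ACGTG but hold CCACG, which was found in 51.2% of tested genes with a window and in 32.8% of all windows:
Gorasp2, chr2:70661518-70661547, plus strand: gcgctgtctgcggCGTGGcagcggcCGTGG
Golga2, chr2:32288081-32288200, plus strand: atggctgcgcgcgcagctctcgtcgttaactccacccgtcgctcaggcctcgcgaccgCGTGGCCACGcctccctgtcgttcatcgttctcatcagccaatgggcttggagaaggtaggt
Bet1, chr6:4086991-4087110, minus strand: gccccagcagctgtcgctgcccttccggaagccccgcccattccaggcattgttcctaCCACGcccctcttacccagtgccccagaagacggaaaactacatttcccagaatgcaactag

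The largest decreases with no searched motif in the window were those of Cog6 and Sec22b, whose 250 bases before the start are given in full for that reason:
Cog6, chr3:53017224-53017473, minus strand: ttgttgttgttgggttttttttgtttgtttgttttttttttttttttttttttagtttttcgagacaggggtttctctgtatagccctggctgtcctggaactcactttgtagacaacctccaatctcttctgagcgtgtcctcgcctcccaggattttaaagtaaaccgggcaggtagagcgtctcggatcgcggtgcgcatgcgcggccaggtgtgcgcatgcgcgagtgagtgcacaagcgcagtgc
Sec22b, chr3:97900977-97901226, plus strand: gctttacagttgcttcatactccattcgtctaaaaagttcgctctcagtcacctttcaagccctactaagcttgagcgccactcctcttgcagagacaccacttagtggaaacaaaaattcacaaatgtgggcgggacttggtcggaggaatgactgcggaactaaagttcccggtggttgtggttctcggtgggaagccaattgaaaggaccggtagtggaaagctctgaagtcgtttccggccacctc

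The core ACGTG was found in 16 of the 29 genes, against 28.4% of tested genes with a window and 43.7% of those called lower in ACreb3l2_AXBP1. It did not separate the genes by their response: 9 of the 17 that were called lower in ACreb3l2_AXBP1 held it, and 7 of the 12 that were not called. The longer GACGTGG was held by 5 of those 17 and by 1 of those 12, and ACGTGGC also by 5 and 1. TGACGTG was held by 3 and 1, and the more frequent CCACG by 14 and 6. GACGTGG was held by 4.12% of tested genes with a window and by 12.8% of those called lower in ACreb3l2_AXBP1. These shares were 4.41% and 13.1% for ACGTGGC, 3.13% and 7.91% for TGACGTG, and 51.2% and 61.9% for CCACG. The ER stress element (CCAAT, 9 bases, CCACG) was found in none of the 29 and in 0.119% of all windows. Matches overlap, since each 7-base element contains the core. They are descriptions of sequence, and the factors' binding was not measured in these libraries.

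**Figure D1:**
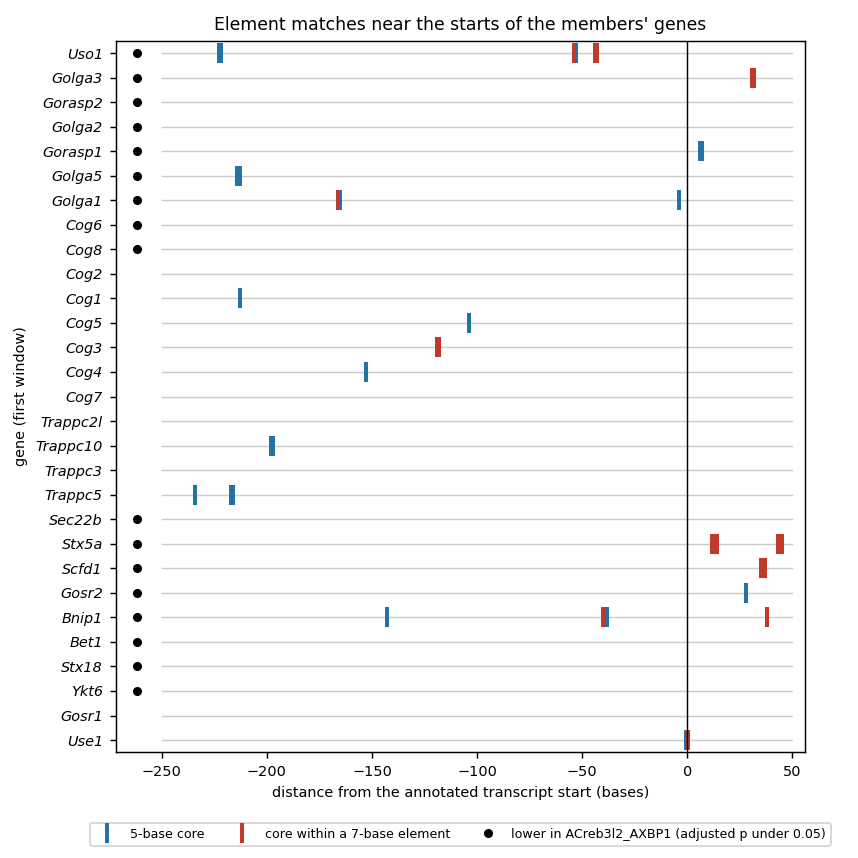
Positions of the core (blue) and of the core within a 7-base element (red) from 250 bases before to 50 bases after the annotated start (horizontal axis, bases) in the first window of 29 genes, with a black dot for genes called lower in ACreb3l2_AXBP1 than in WT. Stx5a, Scfd1 and Golga3 hold their matches after the start, and Sec22b, Cog6 and Stx18 are among those that hold none.

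All 36 genes passed the filter on low counts, with at least 385 reads in every library. Per length, in WT lobes, the most abundant were Sec22b at 124 ± 11.6 FPKM (fragments per kilobase of transcript and library size, SD, n = 2) and Gorasp2 at 111 ± 10.6 FPKM, and the least abundant were Golga1 at 11.7 ± 0.389 FPKM and Cog3 at 11.3 ± 0.202 FPKM. Of all counts the 36 together took 0.388% and 0.391% in WT and 0.390% and 0.381% in AXBP1. In the ACreb3l2 libraries they took 0.320% and 0.334%, and in the ACreb3l2_AXBP1 libraries 0.335% and 0.328%. The shares in both groups with the ACreb3l2 transgene thus lay below all 4 of the shares without it.

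The genes called lower where Creb3l2 was blocked were mostly golgins and SNAREs, with 1 COG subunit in ACreb3l2 and 2 in ACreb3l2_AXBP1. In ACreb3l2 against WT, 10 of the 36 genes were called lower (edgeR quasi-likelihood test, Benjamini-Hochberg adjusted p under 0.05 over 15580 genes) and none was called higher, where 2.50% of all genes tested were called lower. The median log2 change was -0.26 over the 36 genes and 0.01 over all genes. In ACreb3l2_AXBP1 against WT, 19 of the 36 were called lower and none higher, against 6.99% of all genes, with a median of -0.29 over the 36 genes. Among the 8967 genes at least as abundant as the least abundant of the 36, 3.45% and 9.81% were called lower in these comparisons. The 2 comparisons share their WT libraries. In AXBP1 against WT, edgeR called none of the 36 and DESeq2 none; 2 had an unadjusted p under 0.05, and the median was -0.11.

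**Figure D2:**
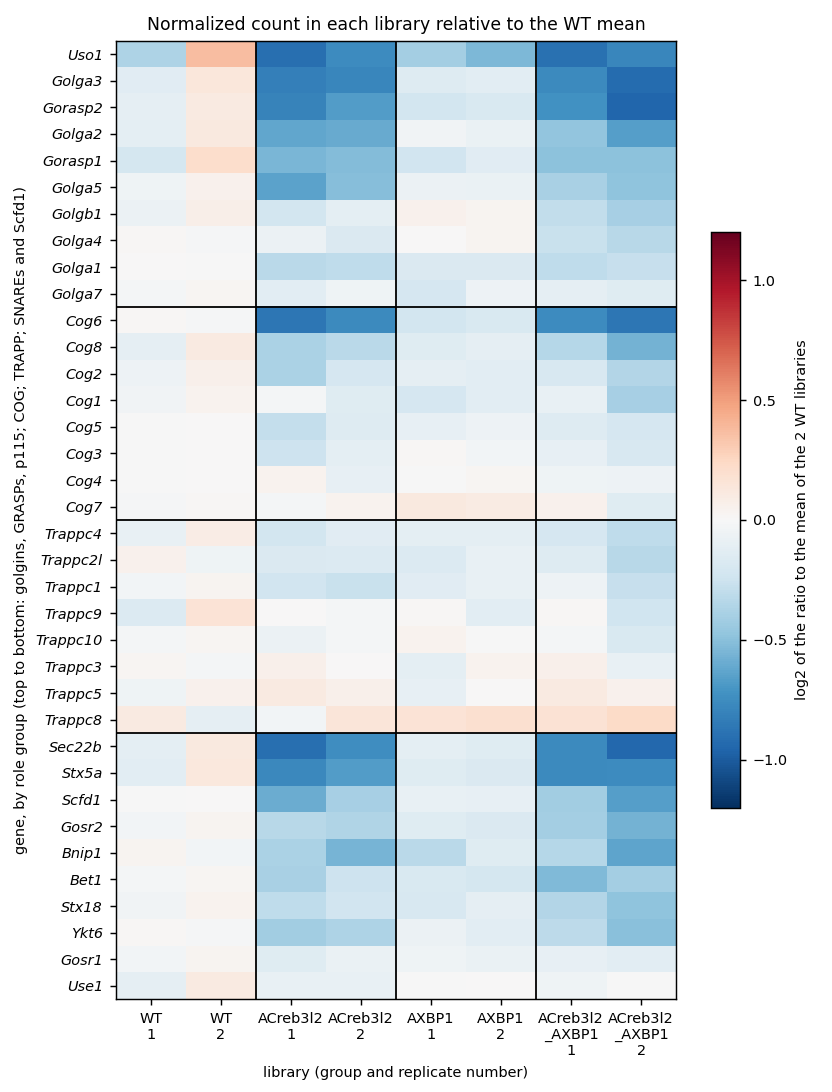
Normalized count of each of the 36 genes (rows, by role group and then by change) in each of the 8 libraries (columns), as the log2 of its ratio to the mean of the 2 WT libraries. The golgin and SNARE blocks are mostly blue in the 4 libraries with the ACreb3l2 transgene, the TRAPP block has its lowest median, -0.21, in ACreb3l2_AXBP1 replicate 2, and WT replicate 2 stands above WT replicate 1 for many genes.

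Of the 10 golgins, stacking factors and p115, 5 were called lower in ACreb3l2 and 9 for ACreb3l2_AXBP1, each against WT, with median log2 changes of -0.56 and -0.47. In AXBP1 against WT none of the 10 was called by edgeR, 1 had an unadjusted p under 0.05 and the median was -0.14.

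Golga3 encodes golgin-160 and lies at chr5:110176701-110226470 (mm10, plus strand). Its normalized counts were 5353 and 6496 for WT, 3339.5 and 3435 for ACreb3l2, 5283 and 5389.9 for AXBP1, and 3476 and 3099 for ACreb3l2_AXBP1. All 4 libraries with the ACreb3l2 transgene were below all 4 without it. Golga3 was 42.8% lower in ACreb3l2 than in WT (log2 change -0.81 ± 0.104 SE, adjusted p = 0.00347) and 44.5% lower in ACreb3l2_AXBP1 (-0.85 ± 0.104, adjusted p = 0.00238). It was also lower in each of these groups than in AXBP1, by log2 changes of -0.66 and -0.70 (adjusted p = 0.0203 and 0.0167).

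Gorasp2 encodes GRASP55, which links Golgi cisternae into stacks, and lies at chr2:70661576-70712636 (mm10, plus strand). Its normalized counts were 7888 and 9212 for WT, 4905 and 5353 for ACreb3l2, 7334 and 7509.8 for AXBP1, and 5138 and 4393 for ACreb3l2_AXBP1. The groups with and without the ACreb3l2 transgene did not overlap. Gorasp2 fell by 40.0% in ACreb3l2 (adjusted p = 0.00583) and by 44.3% in ACreb3l2_AXBP1 (adjusted p = 0.00252), each against WT. Against AXBP1 it was lower in ACreb3l2_AXBP1 (log2 change -0.64 ± 0.107, adjusted p = 0.0309), and in ACreb3l2 the difference of -0.53 missed the threshold (adjusted p = 0.0664). Its relative Gorasp1, or GRASP65, had normalized counts of 1446 and 1943.5 for WT, 1148 and 1167.5 for ACreb3l2, 1432 and 1528 for AXBP1, and 1189 and 1189.5 for ACreb3l2_AXBP1. Here the WT libraries were far apart, and the calls against WT (-0.55 ± 0.126, adjusted p = 0.0491, in ACreb3l2, and -0.51 ± 0.126, adjusted p = 0.0339, in ACreb3l2_AXBP1) held in only 5 and 7 of 18 alternative settings. Exons of Gorasp1 overlap exons of Wdr48 on the other strand over 1331 bases, and those of Gorasp2 overlap 415 bases of Tlk1 and Gm26558. The strand setting of the counting is not given in the sources used here, so reads from such overlaps cannot be assigned.

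Golga2 encodes GM130, the cis-Golgi golgin that binds p115 and GRASP65, and its exons overlap those of Swi5 on the other strand over 98 bases. It had normalized counts of 5663 and 6668 for WT, 3986 and 4053 for ACreb3l2, 5951 and 5799 for AXBP1, and 4435 and 3876.5 for ACreb3l2_AXBP1. AXBP1 overlapped WT, and both groups with the ACreb3l2 transgene lay below it. The log2 change against WT was -0.62 ± 0.101 in ACreb3l2 (adjusted p = 0.0107) and -0.57 in ACreb3l2_AXBP1 (adjusted p = 0.0102), and that of ACreb3l2 against AXBP1 was -0.55 (adjusted p = 0.0426). Golga5, or golgin-84, a membrane-anchored golgin of intra-Golgi traffic, had normalized counts of 2639 and 2851 for WT, 1762 and 1928 for ACreb3l2, 2609.5 and 2588 for AXBP1, and 2093 and 1968 for ACreb3l2_AXBP1. It fell by 32.8% in ACreb3l2 (adjusted p = 0.00631) and by 26.0% in ACreb3l2_AXBP1 (adjusted p = 0.0142) against WT.

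Uso1 encodes p115, the tether that GM130 and giantin hold at the cis-Golgi. Its normalized counts were 2060.2 and 3439 for WT, 1419 and 1573 for ACreb3l2, 2008.5 and 1832 for AXBP1, and 1433 and 1549 for ACreb3l2_AXBP1. The WT libraries differed more than the groups did from the lower of them. The log2 change in ACreb3l2_AXBP1 was the most negative of the 36 (-0.88 ± 0.214) and passed the threshold narrowly (adjusted p = 0.0449), and the same change in ACreb3l2 did not (-0.88 ± 0.214, adjusted p = 0.0897). Over 18 alternative settings the log2 change of Uso1 in ACreb3l2_AXBP1 ran from -1.21 to -0.47, and it was called in 9 of them, not when any 1 library other than WT replicate 1 was left out.

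The other golgins moved less. Golgb1 (giantin), Golga4 (golgin-245) and Golga1 (golgin-97), the last 2 of them trans-Golgi golgins, were called lower in ACreb3l2_AXBP1 against WT at log2 changes of -0.35 ± 0.090 (adjusted p = 0.0404), -0.30 ± 0.081 (adjusted p = 0.0462) and -0.29 ± 0.079 (adjusted p = 0.0462). Exons of Golgb1 overlap those of Gm49599 and Gm49600 on the same strand over 613 bases. In ACreb3l2 the log2 changes of Golgb1, Golga4 and Golga1 were -0.17, -0.12 and -0.31 and did not pass. Golga7, a partner of the palmitoyltransferase Zdhhc9 and not a coiled-coil tether, had log2 changes between -0.13 and -0.09 against WT and no call.

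**Figure D3:**
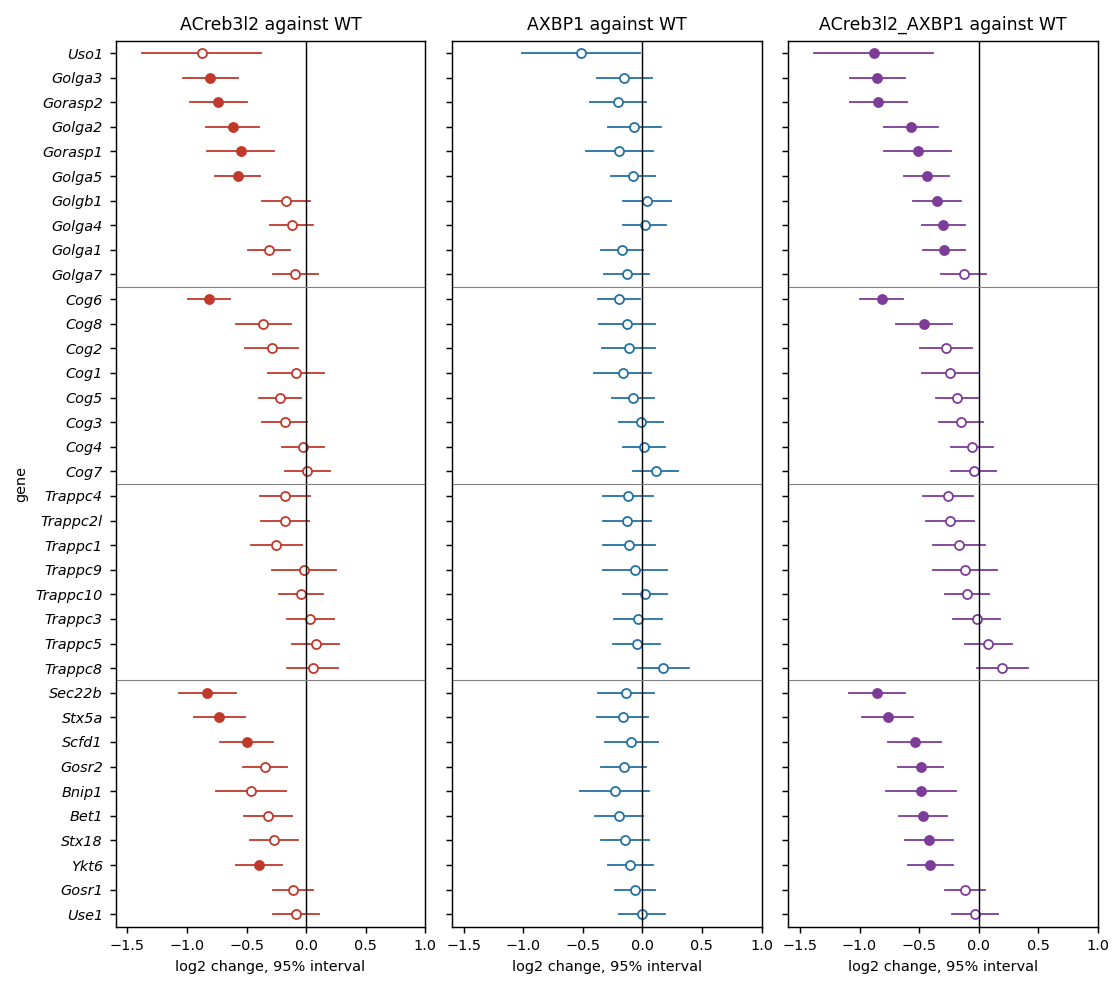
Log2 change of each of the 36 genes against WT (horizontal axis) in ACreb3l2, AXBP1 and ACreb3l2_AXBP1, with the 95% interval of the fit as a line and a filled point where the adjusted p was under 0.05. Filled points number 10, 0 and 19, and none of the 8 TRAPP genes is filled.

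In the ER-Golgi SNARE group, 4 of 10 genes were called lower in ACreb3l2 and 8 of 10 in ACreb3l2_AXBP1, each against WT, with median log2 changes of -0.37 and -0.47. All 10 log2 changes were negative in both comparisons. In AXBP1 all 10 were negative too, with a median of -0.14, but edgeR called none and none had an unadjusted p under 0.05.

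Sec22b, the R-SNARE of vesicles between ER and Golgi, lies at chr3:97901190-97923276 (mm10, plus strand). It had normalized counts of 7194 and 8445 for WT, 4150.5 and 4652 for ACreb3l2, 7164 and 7042 for AXBP1, and 4602 and 4050.5 for ACreb3l2_AXBP1. The 4 libraries with the ACreb3l2 transgene lay below the other 4. Sec22b fell by 43.7% in ACreb3l2 (log2 change -0.83 ± 0.106, adjusted p = 0.00334) and by 44.7% in ACreb3l2_AXBP1 (-0.85 ± 0.106, adjusted p = 0.00246) against WT. Against AXBP1 it fell by 38.1% in ACreb3l2 (adjusted p = 0.0176) and by 39.1% in ACreb3l2_AXBP1 (adjusted p = 0.0167).

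Stx5a encodes syntaxin 5, the Q-SNARE with which Sec22b, Bet1 and Gosr2 assemble, and lies at chr19:8741413-8756069 (mm10, plus strand), where its exons overlap Mir6992 on the same strand over 109 bases. Its normalized counts were 2900.5 and 3477 for WT, 1855 and 1993.5 for ACreb3l2, 2874 and 2810.4 for AXBP1, and 1872 and 1884.5 for ACreb3l2_AXBP1. The same separation by the ACreb3l2 transgene was seen as for Sec22b. The decrease was 39.7% in ACreb3l2 (adjusted p = 0.00375) and 41.1% in ACreb3l2_AXBP1 (adjusted p = 0.0025) against WT, and both groups were also lower than AXBP1 (adjusted p = 0.0287 and 0.0258).

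The remaining partners of syntaxin 5 changed less. Gosr2, or membrin, had normalized counts of 6864.5 and 7161 for WT, 5576 and 5462 for ACreb3l2, 6339.8 and 6232 for AXBP1, and 5291 and 4717 for ACreb3l2_AXBP1. Exons of Gosr2 overlap those of C130046K22Rik on the other strand over 149 bases. Against WT, Gosr2 had a log2 change of -0.35 ± 0.084 under ACreb3l2 (adjusted p = 0.0593) and -0.49 ± 0.084 under ACreb3l2_AXBP1 (adjusted p = 0.00914). Bet1, a SNARE of the same fusion complex, had 1601 and 1660 for WT, 1244.5 and 1372 for ACreb3l2, 1436 and 1405 for AXBP1, and 1129 and 1232 for ACreb3l2_AXBP1. For both genes the 4 groups stood in the order WT, AXBP1, ACreb3l2 and ACreb3l2_AXBP1 with no overlap of libraries, and the lone call against WT was in ACreb3l2_AXBP1 (for Bet1 -0.47 ± 0.091, adjusted p = 0.0148). Scfd1, or Sly1, the Sec1/Munc18 protein that binds syntaxin 5, had normalized counts of 5163 and 5210 for WT, 3429.8 and 3923 for ACreb3l2, 4879.9 and 4845 for AXBP1, and 3874 and 3282 for ACreb3l2_AXBP1. It fell by 29.1% in ACreb3l2 (adjusted p = 0.0278) and by 31.0% in ACreb3l2_AXBP1 (adjusted p = 0.0126).

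Ykt6 is a lipid-anchored R-SNARE that cycles on and off Golgi membranes. It had normalized counts of 2905 and 2867 for WT, 2155 and 2232 for ACreb3l2, 2743 and 2637 for AXBP1, and 2320 and 2039.9 for ACreb3l2_AXBP1, and was called lower in ACreb3l2 (-0.40 ± 0.085, adjusted p = 0.0374) and in ACreb3l2_AXBP1 (-0.41 ± 0.085, adjusted p = 0.019). Stx18 and Bnip1 (Sec20) belong, with Use1, to the SNARE complex on the ER that receives vesicles coming back from the Golgi. Stx18 had 1527 and 1628 for WT, 1276 and 1345 for ACreb3l2, 1381 and 1464 for AXBP1, and 1235 and 1126 for ACreb3l2_AXBP1, and was called in the last group alone (-0.42 ± 0.091, adjusted p = 0.0214). Its exons overlap those of Nsg1 and Gm42858 on the other strand over 1482 bases. Bnip1 was called there as well (-0.48 ± 0.130, adjusted p = 0.0446). Use1, the third SNARE of that complex, and Gosr1 (GOS-28), a SNARE within the Golgi, were called in no comparison, with log2 changes in ACreb3l2_AXBP1 against WT of -0.03 (95% interval -0.22 to 0.16) and -0.11 (95% interval -0.28 to 0.06).

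**Figure D4:**
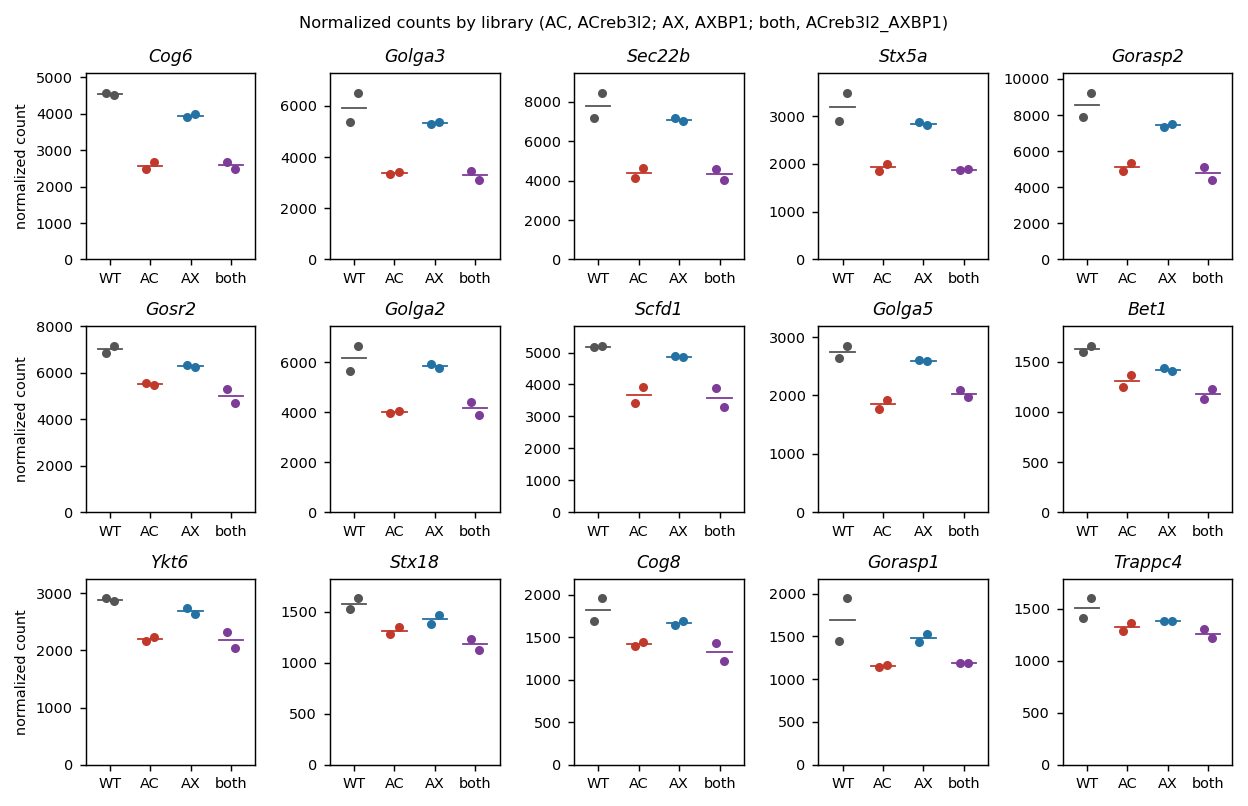
Normalized counts (vertical axis, from 0) of 15 of the 36 genes in each library (points) with the group mean (line), for WT, ACreb3l2 (AC), AXBP1 (AX) and the double group (both). In Cog6, Golga3, Sec22b, Stx5a and Gorasp2 the AC and both groups lie together and below AX, and in Trappc4 the 4 groups lie close.

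Within the COG complex one subunit stood apart. Cog6, a subunit of lobe B, lies at chr3:52981875-53017237 (mm10, minus strand). Its normalized counts were 4559.5 and 4500 for WT, 2483 and 2664 for ACreb3l2, 3896 and 3996 for AXBP1, and 2679 and 2476 for ACreb3l2_AXBP1. The replicates were close in every group and only ACreb3l2 and ACreb3l2_AXBP1 overlapped. It fell by 43.2% in ACreb3l2 against WT (adjusted p = 0.000961), by 43.1% in ACreb3l2_AXBP1 against WT (adjusted p = 0.000828), by 34.8% in ACreb3l2 against AXBP1 (adjusted p = 0.00798) and by 34.7% in ACreb3l2_AXBP1 against AXBP1 (adjusted p = 0.00882). In AXBP1 against WT its log2 change of -0.20 ± 0.080 did not pass (unadjusted p = 0.0317, adjusted p = 0.492).

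Cog8, which joins the lobes, was the other COG subunit with a call. Its normalized counts were 1691 and 1958 for WT, 1397 and 1449.7 for ACreb3l2, 1648 and 1690.4 for AXBP1, and 1434 and 1224 for ACreb3l2_AXBP1, and the call was in ACreb3l2_AXBP1 against WT (-0.46 ± 0.105, adjusted p = 0.0261). Exons of Cog8 overlap those of Pdf on the same strand over 1306 bases, so its counts are uncertain. The other 6 subunits had no call in any comparison, and their log2 changes in ACreb3l2_AXBP1 against WT ran from -0.27 for Cog2 to -0.04 for Cog7. The median of the 8 was -0.20 in ACreb3l2, -0.10 in AXBP1 and -0.21 in ACreb3l2_AXBP1.

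No TRAPP subunit was called in any comparison by edgeR. In ACreb3l2_AXBP1 against WT, 2 of the 8 had an unadjusted p under 0.05, as had 4630 of all 15580 genes, and the median log2 change was -0.11, against -0.03 in ACreb3l2 and -0.05 in AXBP1. Trappc4, a core subunit and the one with the largest change, had normalized counts of 1412 and 1600 for WT, 1291 and 1369 for ACreb3l2, 1383 and 1382 for AXBP1, and 1304 and 1219 for ACreb3l2_AXBP1. Exons of Trappc4 overlap those of Rps25 on the other strand over 462 bases. Its log2 change of -0.26 ± 0.093 missed the threshold (adjusted p = 0.105). The others ran from -0.24 for Trappc2l to 0.20 for Trappc8, a subunit of TRAPPIII, and the interval of Trappc3, -0.21 to 0.18, leaves out a change of the size seen for Golga3 or Sec22b. Differences between the role groups were not tested, since the genes of a group are not replicates.

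The single transgenes were then set against each other. In ACreb3l2 against AXBP1, 6 of the 36 genes were called lower and none higher, where 0.680% of all genes tested were called lower. They were Cog6 and Golga3, described above, with Sec22b (log2 change -0.69), Stx5a (-0.56), Golga2 (-0.55) and Golga5 (-0.49, adjusted p = 0.0286). Adding the ACreb3l2 transgene to AXBP1 gave 5 calls, all lower, against 0.616% of all genes: Sec22b (-0.72), Golga3 (-0.70), Gorasp2 (-0.64), Cog6 (-0.61) and Stx5a (-0.60). Both comparisons share the AXBP1 libraries. With DESeq2 the counts were 8 and 9, where 1.67% and 1.84% of all genes were called in either direction. On FPKM with either pseudocount none was called in ACreb3l2 against AXBP1, and the median log2 change of the 36 turned from -0.14 to 0.038 with 14 of 36 negative in place of 31, while the median of all genes moved from 0.0031 to 0.18 with a pseudocount of 0.1 and to 0.15 with 1. Leaving out 1 library lowered or raised the counts here and over all genes, depending on the library. The falls were as follows. In ACreb3l2 against AXBP1 the count was 0 without either AXBP1 library or without ACreb3l2 replicate 1, and 1 without ACreb3l2 replicate 2, where 0.116% to 0.327% of all genes were called in place of 0.719%. In ACreb3l2_AXBP1 against AXBP1 it was 0 without either AXBP1 library or without ACreb3l2_AXBP1 replicate 2, where 0.0449% to 0.0706% of all genes were called in place of 0.623%.

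The effect of the ACreb3l2 transgene could be read in pairs of groups that share no library, ACreb3l2 against WT and ACreb3l2_AXBP1 against AXBP1. Of the 36 genes, 31 (86.1%) had a negative log2 change in both, against 34.4% of all genes tested. On FPKM the sign count of ACreb3l2_AXBP1 against AXBP1 went from 32 to 21 negative and its median from -0.20 to -0.091 with a pseudocount of 0.1, beside 0.12 over all genes. Across the 36 genes the 2 sets of log2 changes had a Pearson r of 0.889, and across all 15580 genes an r of 0.449. This describes genes measured in the same libraries, which are not independent replicates. For the AXBP1 transgene, AXBP1 against WT and ACreb3l2_AXBP1 against ACreb3l2 gave an r of 0.119 over the 36 genes and 0.270 over all genes, with 18 of the 36 (50%) lower in both, against 33.5% of all genes.

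**Figure D5:**
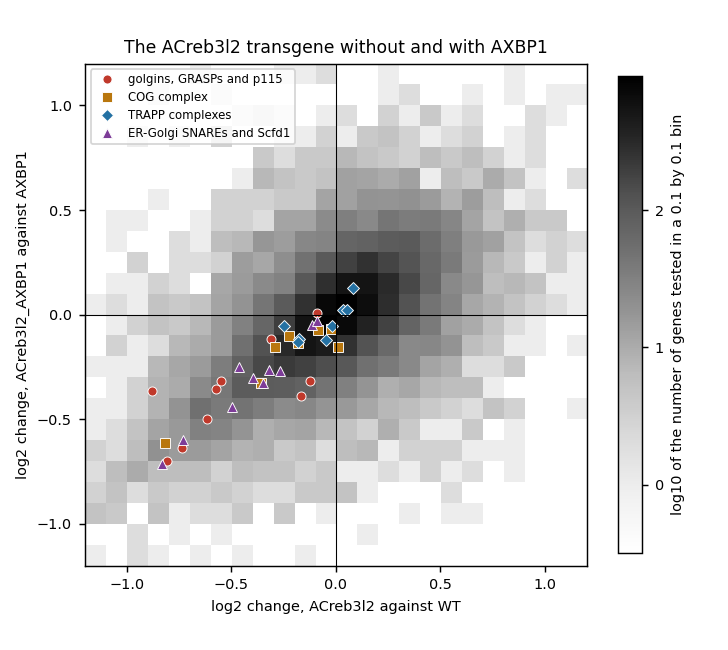
Log2 change of ACreb3l2 against WT (horizontal axis) and of ACreb3l2_AXBP1 against AXBP1 (vertical axis) for the 36 genes, marked by role group, over all genes tested (grey, log10 of the number of genes in a bin of 0.1 by 0.1). Uso1 lies farthest left at -0.88, Sec22b lowest at -0.72, and TRAPP genes lie near 0 on both axes.

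Averaging the ACreb3l2 contrast over both AXBP1 states, a comparison added after the values were seen, 16 of the 36 genes were called lower and none higher, against 4.99% of all genes. The count was 8 without AXBP1 replicate 1, 9 without AXBP1 replicate 2 and 10 without ACreb3l2 replicate 1, where calls in either direction among all genes went from 6.75% to 2.77%, 2.5% and 4.25%. Sec22b (log2 change -0.77, adjusted p = 0.000361), Golga3 (-0.75, adjusted p = 0.000361) and Cog6 (-0.72, adjusted p = 0.000122) had the largest of these averaged changes. Averaging the AXBP1 contrast over both ACreb3l2 states left none of the 36 called by edgeR, where 0.0321% of all genes were called, and none by DESeq2, where 2.35% were. With edgeR 4 of the 36 had an unadjusted p under 0.05, as had 2444 of all 15580 genes. That count was 1 with library sizes alone and 22 on FPKM with either pseudocount, and it changed when 1 library was left out. The median log2 change of the 36 was -0.078 with 31 negative. It was -0.0025 with library sizes alone (19 negative), -0.035 without WT replicate 2 and -0.18 on FPKM with a pseudocount of 0.1, beside medians over all genes of 0.074, 0.0043 and -0.11.

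For XBP1 blockade the values were small and leaned one way. In AXBP1 against WT, 30 of the 36 log2 changes were negative, and both AXBP1 libraries were below both WT libraries in 22 of the 36 genes, where 7751 of all 15580 genes were negative and 23.8% were separated in this way. Without WT replicate 2, 25 of the 36 were negative and the median went from -0.11 to -0.031, and library sizes alone also gave 25, with a median of -0.052. At an unadjusted p under 0.05 there were 2 genes, Cog6 and Uso1, where 9.97% of all genes reached it. That count was 0 without WT replicate 2 and without either AXBP1 library, and 6 without WT replicate 1. On FPKM it was 22, with 35 of 36 negative, while all genes had a median of -0.16 with a pseudocount of 0.1. The share of all genes called after adjustment was 0% by edgeR (79 genes by DESeq2). The anterior-lobe markers moved in the same comparison, with a summed level of 4798 to 7118 CPM in WT and 2475 to 2598 CPM in AXBP1, and none of these 8 markers was called. When the AXBP1 transgene was added to ACreb3l2, edgeR and DESeq2 called none of the 36 genes, none had an unadjusted p under 0.05 (7.14% of all genes did), and 0% of all genes were called by edgeR (41 by DESeq2). The median log2 change of the 36 was -0.033, and it took both signs, from -0.095 without ACreb3l2_AXBP1 replicate 1 (2 genes at an unadjusted p under 0.05) to 0.020 without ACreb3l2_AXBP1 replicate 2, and 0.053 with library sizes alone. On FPKM with a pseudocount of 0.1 it was -0.082, beside -0.057 over all genes, and 5 genes had an unadjusted p under 0.05. The widest 95% interval in that comparison was that of Uso1, -0.51 to 0.50, and the interval of Cog6 was -0.18 to 0.18.

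Whether both transgenes together differed from the sum of the single changes was tested as an interaction. None of the 36 genes was called by edgeR or DESeq2, and 0% of all genes were called by edgeR. None of the 36 had an unadjusted p under 0.05 with edgeR and 1 had with DESeq2, against 2.48% of all genes with edgeR. The interaction was positive in 27 of the 36 genes, with a median of 0.06 on the log2 scale, but 18 of the 36 were negative without WT replicate 2 (median -0.0025) or without ACreb3l2_AXBP1 replicate 1 (median 0.0076). The highest median among the fits without 1 library was 0.14, with 6 negative, without ACreb3l2_AXBP1 replicate 2. On FPKM with a pseudocount of 0.1 the median was 0.19, with 3 negative and 5 genes at an unadjusted p under 0.05, beside a median of 0.10 over all genes. For Cog6 it was 0.20 (95% interval -0.05 to 0.45) and for Sec22b 0.11 (95% interval -0.22 to 0.45).

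The number of genes called in the double group depended on single libraries. The median log2 change of the 36 against WT stayed between -0.38 and -0.29 when any 1 library was left out. Without WT replicate 2, or without ACreb3l2_AXBP1 replicate 2, 5 of the 36 genes were called lower in ACreb3l2_AXBP1 against WT, and calls in either direction among all genes went from 10.1% to 2.28% and 1.4%. Without AXBP1 replicate 1 or AXBP1 replicate 2, which enter through the shared estimate of spread, 12 were called, beside 5.4% and 5.31% of all genes. Golga3, Gorasp2, Cog6, Stx5a and Sec22b were called in all 18 alternative settings of this comparison. In ACreb3l2 against WT, Golga3, Cog6, Stx5a and Sec22b were called in all 18, and the count was 4 without ACreb3l2 replicate 1 and 6 without ACreb3l2 replicate 2 or without WT replicate 2, while calls in either direction among all genes went from 3.04% to 1.25%, 0.982% and 1.01%. Every one of the 19 and 10 calls kept a negative log2 change in all 18 settings.

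Other genes of the same route were read from lists, against the 6.99% of all genes called lower in ACreb3l2_AXBP1. Among 11 other golgins and Golgi structure genes, 5 were called lower in ACreb3l2_AXBP1 against WT and none higher, led by Acbd3, which binds giantin (log2 change -0.60 ± 0.079, adjusted p = 0.00301), and Golph3, a phosphoinositide-binding Golgi protein (-0.42 ± 0.083, adjusted p = 0.0148). All 3 genes of the NRZ tether, which docks returning vesicles at the ER beside Stx18, were called lower, Rint1 most (-0.70 ± 0.124, adjusted p = 0.0104). Of 4 genes for NSF and the SNAPs, which take SNARE complexes apart after fusion, 2 were lower, Napa (-0.52 ± 0.113, adjusted p = 0.0215) and Napb (-0.65 ± 0.139, adjusted p = 0.0217). Of 12 Golgi Rab and Arl GTPases, 2 were lower, Arl1, which recruits trans-Golgi golgins (-0.54 ± 0.076, adjusted p = 0.00369), and Rab33b (-0.33 ± 0.086, adjusted p = 0.0394). None of these lists had a gene called higher.

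The remaining lists, of other TRAPP subunits and of tethers and SNAREs mostly of later steps, gave counts near the share over all genes, of which 1089 of 15580 were called lower and 477 higher in ACreb3l2_AXBP1 against WT. Among 19 subunits of the GARP, exocyst and HOPS tethers edgeR called none, and the median log2 change was 0.01. Of these 19, 2 had an unadjusted p under 0.05, as had 4630 of all 15580 genes. The 6 other TRAPP subunits had no call and none at an unadjusted p under 0.05. Of 13 tested SNAREs of the trans-Golgi network and endosomes, 1 was called lower, Bet1l (GS15, -0.88 ± 0.099, adjusted p = 0.00177), which works within the Golgi. Of 13 exocytic SNAREs 1 was lower, Vamp2 of secretory granules (-0.58 ± 0.113, adjusted p = 0.0148), and 1 was higher, Stx2 (0.42 ± 0.110, adjusted p = 0.0401). In ACreb3l2 against WT, where 2.50% of all genes were called lower, the lists gave 5 of 11 other golgins, 1 of 3 NRZ genes, 1 of 4 NSF and SNAP genes, 1 of 12 GTPases and 1 of 13 trans-Golgi and endosomal SNAREs, all lower, and no exocytic SNARE, no post-Golgi tether and no other TRAPP subunit. In AXBP1 against WT edgeR called none on any list, and no list had more than 1 gene with an unadjusted p under 0.05.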

How the data were processed

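RNA was measured in 8 libraries of pooled neuro-intermediate lobes. The labels give ribosomal depletion, but the methods cite a stranded mRNA preparation guide, and which was used is not settled here. The authors trimmed reads with Trimmomatic, aligned them to mm10 and made the deposited read counts per gene with HTSeq-count. The methods name Tophat as the aligner, but their software list names STAR. The authors also deposited FPKM values, used here for levels and as an alternative scale. The strand setting and annotation release of the counting are not given in the sources used here. Library totals were 28256086 to 37988912 counts. With 2 libraries in each group, little is left to estimate the spread between libraries from.

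Groups were taken from the labels. Genes with a mean normalized count above 20 (15580) were fitted in 1 model over the 4 groups with edgeR 4.0.16 in R 4.3.3 (TMM factors, robust quasi-likelihood F test, Benjamini-Hochberg adjustment, threshold 0.05). Intervals are 95% intervals of that fit. DESeq2 1.42.0, and limma 3.58.1 on log2(FPKM + 0.1) and log2(FPKM + 1), were alternatives, as were other normalizations and filters, 2-group fits, a replicate block and leaving out each library. The code was tested on simulated data. Nothing says that libraries of a group are more than separate pools, and p-values measure the spread between them. Replicate numbers did not pair the groups (correlations of deviations -0.197 to 0.0887). Genes described with values were the 14 with the lowest p in ACreb3l2_AXBP1 against WT and the TRAPP gene with the largest change there, with at most the 2 lowest-p genes of each pathway list, and others with library values (Uso1) were chosen after their values were seen. The 36 genes and all lists were chosen with earlier results of these data known. One listed SNARE symbol, Vamp7, had no match. Promoter windows are from RefSeq (GRCm38.p6), with motifs searched on both strands.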

Additional observations from a re-analysis of the deposited data

Results flagged for a closer look

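The response of Golga5 to the AXBP1 transgene had opposite directions in the presence and absence of the ACreb3l2 transgene. Both AXBP1 libraries were below both WT libraries (log2 change -0.079), and both ACreb3l2_AXBP1 libraries were above both ACreb3l2 libraries (log2 change 0.14). Neither change was called, and the interaction that tests the difference was 0.22 ± 0.119 on the log2 scale (edgeR quasi-likelihood test, unadjusted p = 0.098, adjusted p = 1.00).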

How the results depend on the processing

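For ACreb3l2 against WT, the count of 10 genes called among the 36 ran from 4 (without ACreb3l2 replicate 1) to 10 when 1 library was left out, and was 6 without WT replicate 2 or ACreb3l2 replicate 2. It was 14 without the filter, 12 with DESeq2, and 7 with library sizes alone or with only those 2 groups fitted, beside 4.92%, 4.85%, 1.95% and 1.77% of all genes called (3.04% as reported). For ACreb3l2_AXBP1 against WT, the count of 19 ran from 5 to 16 when 1 library was left out, and was 9 with library sizes alone and 8 with only those 2 groups fitted, beside 10.6% and 4.2% of all genes (10.1% as reported). For AXBP1 against WT it was 0, with 1 without the filter on low counts and 0 to 1 when 1 library was left out (1 without WT replicate 1). For ACreb3l2 against AXBP1, the count of 6 ran from 0 to 7 when 1 library was left out, was 8 with DESeq2 or without the filter (1.67% and 2.47% of all genes), and was 0 on FPKM with either pseudocount (0.289% and 0.193%). For ACreb3l2_AXBP1 against AXBP1, the count of 5 ran from 0 to 6 when 1 library was left out, and was 3 with library sizes alone, 10 without the filter, 9 with DESeq2, and 1 and 0 on FPKM with pseudocounts of 0.1 and 1, beside 0.353%, 2.56%, 1.84%, 0.237% and 0.205% of all genes. The averaged ACreb3l2 count of 16 ran from 8 to 16 when 1 library was left out, with 9 and 8 on FPKM (3.25% and 3.05% of all genes), and the averaged AXBP1 count of 0 became 1 without the filter and 3 and 2 on FPKM, where the share of all genes called went from 0.0321% to 4.32%, 3.84% and 3.15%.

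With library sizes alone the median log2 change of the 36 was -0.18 in ACreb3l2, -0.052 in AXBP1 and -0.13 in ACreb3l2_AXBP1 against WT, where the median of all genes was 0.08 in ACreb3l2 and 0.17 in ACreb3l2_AXBP1. On FPKM it was -0.27 in AXBP1 with either pseudocount, where all genes had -0.16 and -0.13, and -0.35 in ACreb3l2_AXBP1 with 0.1. Leaving out 1 library gave -0.16 to -0.031 in AXBP1 (-0.031 without WT replicate 2) and -0.38 to -0.29 in ACreb3l2_AXBP1. In AXBP1 against WT, Golga2 ran from -0.18 to 0.052 and Gorasp1 from -0.39 to 0.032, each turning positive without WT replicate 2. The cause of these changes was not tested.

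With the replicate block, the counts were 7 in ACreb3l2, 0 in AXBP1 and 15 in ACreb3l2_AXBP1 against WT, 4 in each group with the ACreb3l2 transgene against AXBP1, and 0 for the interaction, where 2.06%, 0.0193%, 7.14%, 0.61%, 0.372% and 0% of all genes were called. With a crossed pairing, chosen after seeing the data, 17 were called in ACreb3l2_AXBP1 against WT, beside 13.2% of all genes. Where a fit left 1 library in a group, that library was assumed to vary like the others.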
